A study of Mus musculus with 2 samples.

Results

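The 10 genes Vil1, Ezr, Myo1a, Espn, Pls1, Cdhr2, Cdhr5, Ush1c, Eps8 and Gsn encode the actin core of the intestinal microvillus, the linkers that tie the core to the membrane, and the adhesion proteins that hold microvilli together at their tips. They were chosen by gene name on the array design, and 15 probes outside the control spots carried these names. The 10 genes were among 12804 genes measured on both arrays. The study asked which genes of mouse intestinal cells respond to a bile acid, with targets of the nuclear receptor PPARα in view. Segments of intestine from wild-type male mice were kept for 2 h with cholic acid at 0.5 µM, or with the vehicle, which held ethanol at 0.25% and DMSO at 0.05%. Total RNA of the epithelial cells was hybridised to 2 one-colour arrays, 1 per group. The strain, the age, the number of mice, the position of each segment along the intestine and the solvent of the cholic acid are not given in the sources used here. With 1 array per group no difference has a replicate check, so no test was made, and the words higher and lower below compare these 2 arrays and not the treatments.

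An enterocyte carries a dense field of microvilli on its apical face, the brush border, and this membrane bears the digestive enzymes and transporters of the gut. Each microvillus is a bundle of parallel actin filaments cross-linked by villin, espin and fimbrin, fastened to the membrane by ezrin and by the motor protein myosin-1a. At the tips, the protocadherins Cdhr2 and Cdhr5 bind each other between neighbouring microvilli, and the scaffold harmonin, the product of Ush1c, anchors them to the actin core. Gelsolin, the product of Gsn, belongs to the villin family and severs and caps actin filaments, and many cell types other than enterocytes make it.

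The probes are 60-base oligonucleotides, and their sequences are shown for the genes whose readings depend on where the probes lie. Coordinates are those of mm9, as the file headers give them, and an exon or UTR annotation of that build was not used here. The 2 Gsn probes start 16 bases apart and share 44 bases, so they read nearly the same stretch of the transcript. The 2 Espn probes start 42 bases apart and share 18 bases. The 2 Ush1c probes lie 9842 bases apart and share none. In the Gsn and outer Ush1c stretches the capitals mark AATAAA, the polyadenylation signal, and 30 bases of each are shown. In the Espn probe the capitals mark the bases shared with its neighbour, and the inner Ush1c probe and the Cdhr5 probe have no marked letters. The 5 sequences are
Gsn, shared stretch, chr2:35163372-35163401, plus strand: tactttggaaatgaaagccAATAAAagctt
Espn, probe at chr4:151495230-151495289, minus strand: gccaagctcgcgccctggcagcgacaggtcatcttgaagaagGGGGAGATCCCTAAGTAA
Ush1c, outer probe, last bases, chr7:53450728-53450757, minus strand: ggtgaactcactAATAAAcaagactgactc
Ush1c, inner probe, chr7:53460570-53460629, minus strand: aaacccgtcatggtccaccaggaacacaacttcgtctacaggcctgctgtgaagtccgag
Cdhr5, probe at chr7:148455764-148455823, minus strand: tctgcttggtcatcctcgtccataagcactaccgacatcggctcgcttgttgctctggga

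Every one of the 15 probes was well above background on both arrays by the scanner software's own call, and none was saturated or marked as an outlier. The arrays differed as a whole. The 75th percentile of the signal, taken over probes that passed the background call on both arrays, was 1060 with vehicle and 741 with cholic acid, a ratio of 1.43. As the scanner recorded them, 13 of the 15 probes were dimmer on the cholic acid array. Below, each signal is the software's processed signal in scanner units, and each difference is the log2 signal minus the log2 of its array's 75th percentile, cholic acid minus vehicle. On this scale the median difference of all 12804 genes was 0.08, so a gene at 0 lay slightly below the middle of the distribution. All 12 of the enterocyte markers examined, among them sucrase-isomaltase (Sis), lactase (Lct) and intestinal alkaline phosphatase (Alpi), passed the background call on both arrays, as did the 10 genes described here.

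Gsn was higher on the cholic acid array by 2.49 on the log2 scale, 5.60-fold, while the other 9 genes lay between -0.83 and 0.17. At the 2-fold limit, 1 of the 10 genes was higher and 0 were lower. Among all 12804 genes, 6.51% were at least 2-fold higher and 2.05% at least 2-fold lower. At the 1.5-fold limit, Cdhr5 and Eps8 were lower and Gsn was the 1 gene higher, against 7.69% of all genes lower and 17.7% higher. The median of the 10 genes was -0.01, which is 0.09 below the median of all genes, and 8 of the 10 lay below that median. In RNA of mixed cells, fewer cells of a type and less RNA per cell cannot be told apart.

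**Figure D1:**
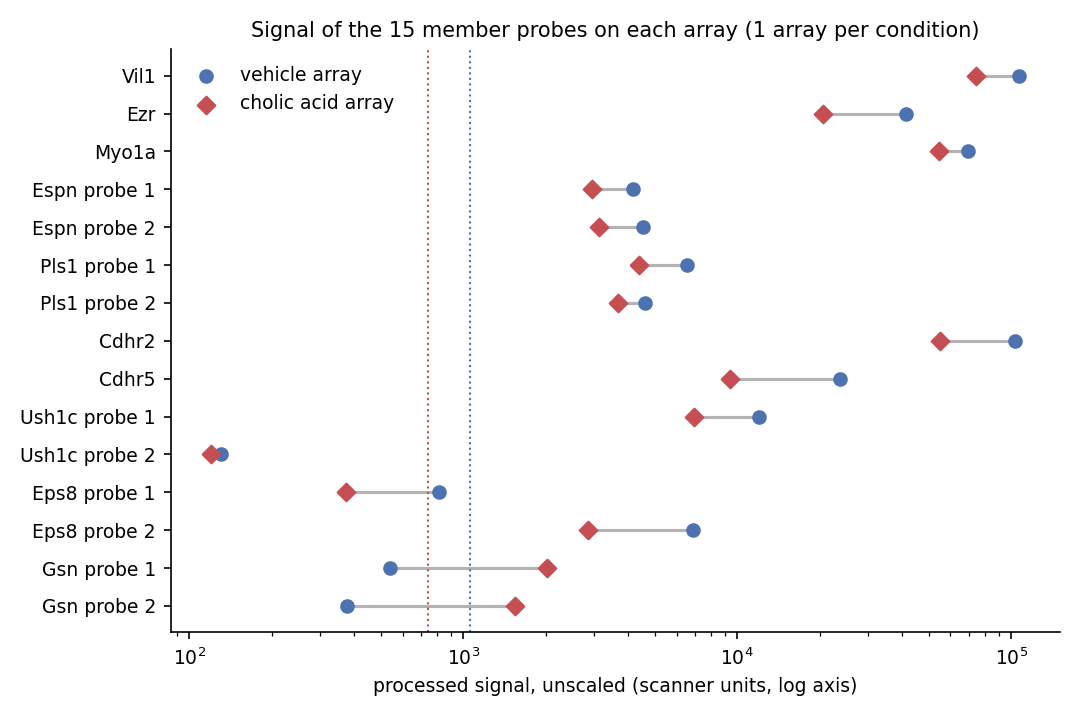
Processed signal in scanner units, on a log axis, of the 15 probes of the 10 genes on the vehicle array and the cholic acid array (1 array per group, so no error bars). The lines of the 2 Gsn probes climb from 541 to 2020 and from 375 to 1540, while 13 of the 15 probes are dimmer on the cholic acid array.

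The actin core was read by villin, espin, plastin-1 (Pls1, also called fimbrin), Eps8 and gelsolin. Villin bundles actin and severs it when calcium is high. The Vil1 probe gave 107000 with vehicle and 74100 with cholic acid, and its scaled difference was -0.01. Its dimming on the scanner scale thus had the size of the drop in the percentile used for scaling. The 8 spike-in control probes were brighter on the cholic acid array, by 0.31 on the log2 scale. Scaling on them, chosen after the data were seen, put Vil1 at -0.84. Espin bundles filaments and sets their length in several kinds of protrusion. The Espn probes gave 4170 and 2940 at one position and 4540 and 3130 at the other, with scaled differences of 0.01 and -0.02. The 2 readings of Espn therefore lay within 0.03 of each other, and their mean was -0.00386.

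Plastin-1 is the fimbrin of the gut epithelium. Its probes lie 61115 bases apart. The probe nearer the 3' end of the gene gave 6540 with vehicle and 4390 with cholic acid, a scaled difference of -0.06. The upstream probe gave 4610 and 3670, a scaled difference of 0.19. It is assigned to an Ensembl transcript, with 0 RefSeq transcripts listed, and the other probe to 1 RefSeq transcript. The 2 readings of Pls1 had opposite signs and were 0.25 apart, and their mean was 0.06. Eps8 caps and bundles actin and sits at microvillus tips. Its probes, 908 bases apart, gave 818 and 373 at the downstream position and 6870 and 2850 upstream, with scaled differences of -0.62 and -0.75. Both Eps8 readings were lower on the cholic acid array, and the mean of -0.68 amounts to 1.61-fold.

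For gelsolin the signals were 541 with vehicle and 2020 with cholic acid at one probe, and 375 and 1540 at the other. Their scaled differences were 2.42 and 2.55, or 5.34-fold and 5.87-fold. Both probes were brighter on the cholic acid array even before scaling, unlike 13 of the 15. Since the Gsn probes overlap, as their shared stretch shows, the second reading is a repeat of the first and not an independent measurement. The transcripts listed for them are read by both probes, so isoforms of gelsolin could not be told apart. Of all 12804 genes, 28 had a larger positive difference. The 1000 genes nearest to Gsn in mean signal had a robust SD of 0.37, so its difference was 6.68 times the spread of genes of like brightness.

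**Figure D2:**
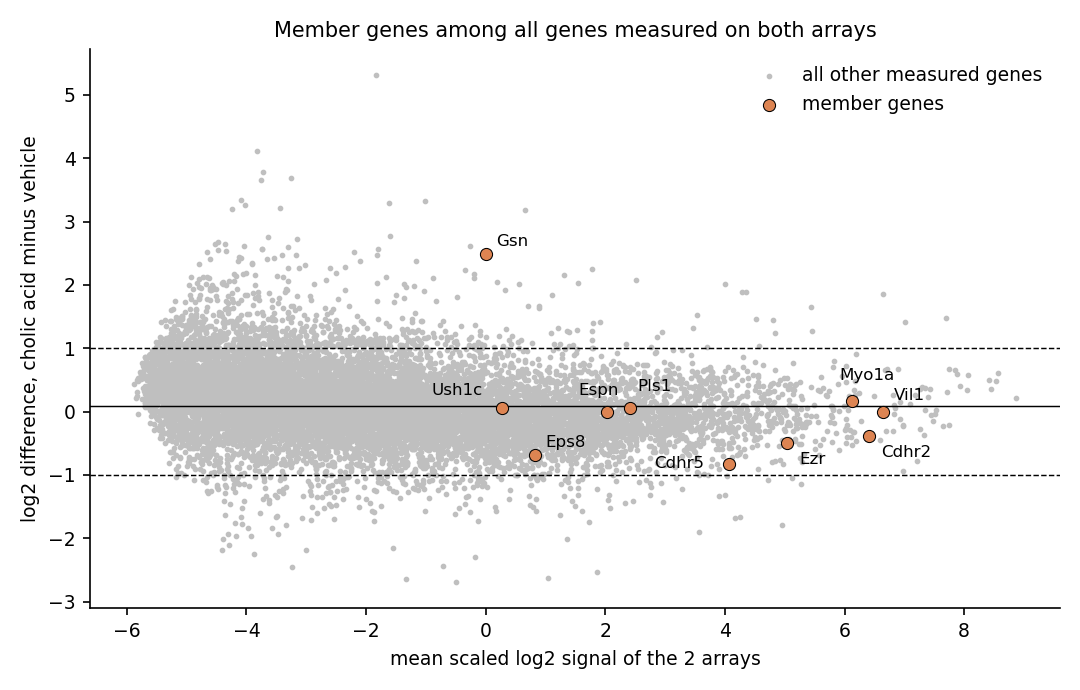
Log2 difference, cholic acid minus vehicle, against the mean scaled log2 signal of the 2 arrays for the 12804 genes measured on both (grey) and the 10 microvillus genes (orange); the solid line is the median of all genes, 0.08, and the dashed lines are 2-fold. Gsn stands at 2.49 and the other 9 genes lie inside the 2-fold lines, with Cdhr5 lowest at -0.83.

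The membrane linkers differed from each other. Ezrin, in its active form, joins membrane proteins to actin and is needed for an ordered brush border. The Ezr probe gave 41200 with vehicle and 20500 with cholic acid, a scaled difference of -0.49, or 1.40-fold lower. Myosin-1a is the motor that forms the bridges between the core bundle and the membrane. The Myo1a probe gave 69500 and 54700, a scaled difference of 0.17, the smallest loss of raw signal among the single-probe genes. The genes nearest in signal had a robust SD of 0.38 for Ezr and 0.39 for Myo1a, so the Ezr difference was 1.30 times that spread and the Myo1a difference 0.44 times.

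The adhesion proteins at the tips were lower as far as the cadherins go. The Cdhr5 probe gave 23800 with vehicle and 9370 with cholic acid. Its scaled difference of -0.83, or 1.78-fold, was the most negative of the 10 genes and 2.19 times the spread of genes nearest in signal. Its binding partner Cdhr2 gave 103000 and 55000, a scaled difference of -0.39, or 1.31-fold lower. That difference was 1.00 times the spread of genes nearest in signal. For Ush1c the 2 probes went opposite ways. The outer probe, at the 3' end, gave 12000 and 6940, a scaled difference of -0.27. The inner probe gave 131 and 120, a scaled difference of 0.39. The gap of 0.66 was the widest between probes of any of the 5 genes read by 2 probes. The Ush1c mean of 0.06 hides it.

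The file lists 3 RefSeq transcripts of Ush1c for the outer probe and 2 of them for the inner one, the variants b3 and b4, so the inner probe reads fewer forms of harmonin. A reading of probes by position was also made over all genes, after the Ush1c and Pls1 values had been seen. In 685 genes with measured probes at least 10000 bases apart on 1 chromosome and strand, the most upstream probe had the higher difference in 70.8%, by a median of 0.25. In the 1368 genes with probes from 1000 to under 10000 bases apart the share was 55.2% and the median 0.06, and in the 815 genes with probes from 60 to under 1000 bases apart it was 45.5% and -0.02. The gap of Pls1, 0.25, equalled the median at its distance, and the gap of Ush1c was larger than the median of 0.06 at its distance by more than the robust SD of 0.42. Whether transcript form, RNA length or the low signal of the inner probe plays a part was not tested.

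How well a spot repeats within an array can be read from 212 probes printed 10 times each and well above background on every spot. The SD of the log2 difference between arrays over the repeated spots had a median of 0.086. It was 0.067 among the 153 probes at least as bright as the dimmest member probe, the inner one of Ush1c. The gap between the Espn probes was smaller than that SD, and the gaps of Eps8 (0.14), Gsn (0.14), Pls1 (0.25) and Ush1c (0.66) were larger. That SD describes the difference of a given probe, while a gap also holds the spot noise of the other probe. The repeated spots also carry the same sequence, and the probes of a gene do not. The comparison therefore cannot show whether the gaps of Eps8 and Gsn exceed spot noise. The SD covers the printing and scanning of the same RNA sample on each array, and holds nothing of the spread between mice or segments.

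The partners of the adhesion complex are myosin-7b (Myo7b), which carries it to the tips, the scaffold Anks4b and the light chain Calml4. Myo7b gave 6600 with vehicle and 3370 with cholic acid, a scaled difference of -0.45. Calml4 gave 30300 and 18300, a difference of -0.21. Anks4b gave 4000 and 2450, a difference of -0.19. In that order, their differences were 1.26, 0.56 and 0.51 times the spread of genes nearest in signal. None of the 3 reached 1.5-fold, and all 3 lay below the median of all genes, as Cdhr2 and Cdhr5 did.

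Ezrin's scaffold and kinases were read in the same way. Slc9a3r1 (EBP50), the scaffold that joins ezrin to membrane transporters, gave 24400 and 14100, a difference of -0.27. The ezrin kinases Slk and Stk10 gave 131 and 69.3, and 5380 and 2970, with differences of -0.40 and -0.34. Of the 6 ezrin kinases and activators listed, 4 lay below 0, with Stk24 at -0.27 and Tnik at -0.15, and 2 above, Stk26 at 0.34 and Rap2a at 0.31. The other scaffolds Slc9a3r2 and Pdzk1 lay above 0 as well, at 0.29 and 0.05, and the spike-in scaling, which shifts every gene by -0.83, puts these 4 below 0. Of the other members of the ezrin family, moesin (Msn), which predominates in leukocytes and endothelium, gave 653 with vehicle and 1050 with cholic acid, a difference of 1.20. Radixin (Rdx) was dim, at 21 and 45.4 on one probe and 55.3 and 90.1 on the other. Its mean difference of 1.42 lies among genes with a robust SD of 0.55. Merlin (Nf2) had a difference of -0.08. Ezrin was thus the family member below 0 by the most, and moesin and radixin lay above it.

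**Figure D3:**
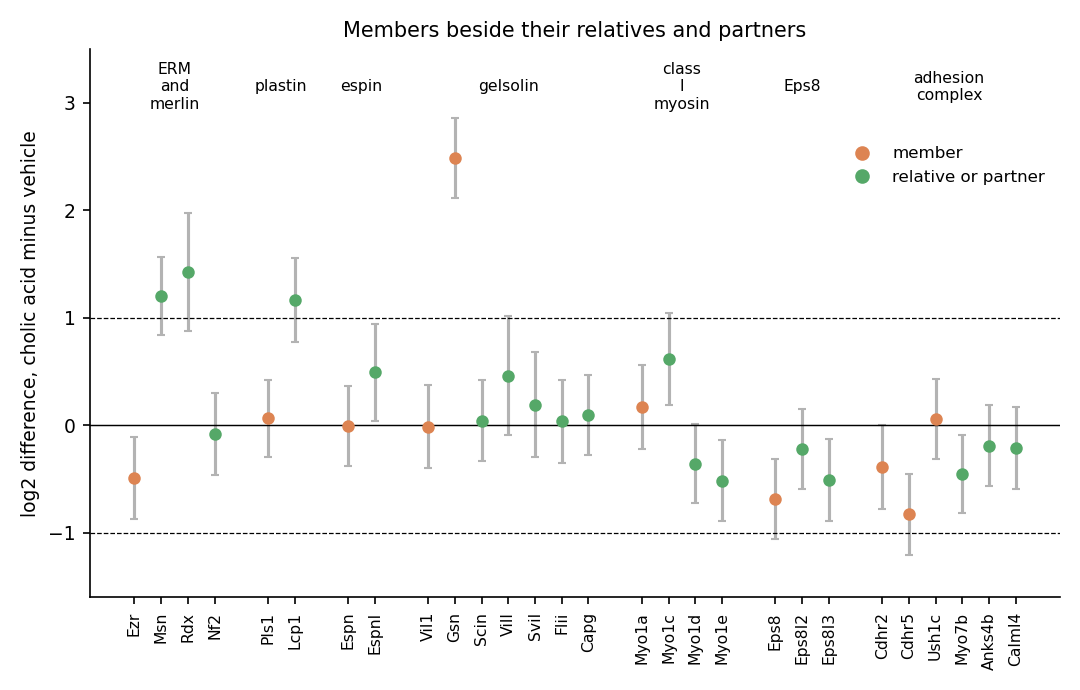
Log2 difference, cholic acid minus vehicle, of the 10 genes and of their relatives and partners, by protein family; the relatives shown are those the text gives, grey bars are 1 robust SD of the 1000 genes nearest in signal, and Pls3, Avil and Eps8l1, which failed the background call on both arrays, are left out. Ezr at -0.49 stands apart from Msn at 1.20 and Rdx at 1.42, and Gsn at 2.49 from the other villin family genes, which lie between -0.01 and 0.46 here and below 0 with the spike-in scaling.

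The relatives of the other members gave both directions. L-plastin (Lcp1), the plastin of blood cells, gave 580 and 869 on one probe and 205 and 336 on the other, a mean difference of 1.16, against 0.06 for Pls1, and Pls3 failed the background call on both arrays. In the villin family Scin (adseverin) differed by 0.04, Flii by 0.04, Capg by 0.10, Svil by 0.19 and Vill by 0.46, and of the 11 other processings 4, 7, 4, 5 and 1 put these genes below 0 in that order. The 3 Svil probes went opposite ways, at -0.33, 0.30 and 0.61. Gelsolin was the 1 gene of its family beyond 2-fold. Among class I myosins, Myo1d was at -0.36 and Myo1e at -0.51, while Myo1c was at 0.61, which fell below 0 in 1 of the 11 other processings. These myosins and the espin relative Espnl, at 0.49 and below 0 in 1 of 11, were added after their values were seen. Eps8l2 and Eps8l3 were at -0.22 and -0.51, on the same side as Eps8.

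Of 76 other genes of the microvillus, its regulators and the terminal web, 66 were measured on both arrays. Their median difference was -0.03, 0.11 below the median of all genes, with 29 above 0 and 37 below. Msn, Rdx, Lcp1 and Tmigd1, an adhesion protein of the epithelium, were at least 2-fold higher, and Hnf4g, a transcription factor of enterocytes, was at least 2-fold lower. Tmigd1 gave 939 and 1440, a difference of 1.13, and Hnf4g gave 1740 and 604, a difference of -1.01. Scaling on the spike-ins, added after the data were seen, put each of the 4 higher genes inside 2-fold, with Rdx largest at 0.59. The percentile over all probes did so for Msn at 0.97, Lcp1 at 0.94 and Tmigd1 at 0.90, median centring for Tmigd1 at 0.999, and normexp for Rdx at 0.87. Hnf4g lay just inside 2-fold with loess, at -0.98, and with normexp, at -0.95. The genes named next were chosen after their values were seen. The membrane mucins Muc13 and Muc3 were lower at -0.78 and -0.82, and Baiap2l1, which shapes the microvillus membrane with Eps8, at -0.70. Its relatives Baiap2 and Baiap2l2 lay above 0 with the main scaling, at 0.58 and 0.11. The keratins of the terminal web lay at -0.33 for Krt8, -0.47 for Krt19 and 0.00 for Krt18, whose sign changed in 8 of 11 other processings. The 2 Krt8 probes were at -0.60 and -0.06. Of the cytoplasmic actins, Actb was at 0.35, turning below 0 in 3 of 11 other processings, and the Actg1 probes ranged from -0.30 to 0.28.

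Transcription factors of the brush border programme were also named after their values were seen. With the main scaling Cdx2, a regulator of intestinal identity, was at 0.23, which the spike-in scaling shifts by -0.83 as it does every gene. Hnf4a was at -0.17, Klf4 at -0.50 and Srf, which drives actin genes, at -0.21. Of the 9 factors listed, 3 lay above 0 and 6 below. Besides Cdx2, those above 0 were Cdx1 at 0.34 and Elf3 at 0.39. Promoter sequence was compared for 9 of the members, for which RefSeq (GRCm38.p6) entries of 250 bases before to 50 bases after the start of transcription were at hand, 13 promoters in all. Shown are stretches of 120 bases upstream of Cdhr5, the most negative gene, and of Vil1, the member whose promoter held a CArG box. The capitals mark a nuclear receptor half-site and a CDX core in Cdhr5, both read on the opposite strand, and a CArG box, the site of Srf, in Vil1.
Cdhr5, chr7:141276787-141276906, minus strand: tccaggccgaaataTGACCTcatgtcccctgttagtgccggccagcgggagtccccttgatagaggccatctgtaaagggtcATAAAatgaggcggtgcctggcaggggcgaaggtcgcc
Vil1, chr1:74409264-74409383, plus strand: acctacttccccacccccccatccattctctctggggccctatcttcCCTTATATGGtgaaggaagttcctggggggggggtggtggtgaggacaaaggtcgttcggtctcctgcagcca

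Both strands were searched in windows of the same length for all 32851 promoters. The half-site AGGTCA, a sequence of 6 bases common to nuclear receptors, occurred in 3 of the 13 member promoters, of Cdhr2, Cdhr5 and Gsn, and in 16.3% of all promoters. A direct repeat of it spaced by 1 base, AGGTCANAGGTCA, the form bound by PPARα with its partner RXR, occurred in 0 of the 13 and in 0.0396% of all. The CDX core TTTAT occurred in 3 of the 13, of Cdhr5, Espn and Gsn, and in 40.01% of all. The CArG box occurred in 1 member promoter, of Vil1, and in 1.63% of all. TATAAA occurred in 0 of the 13 and in 13.6% of all. The searches overlap: AGGTCA is part of the direct repeat, TATAAA holds TTTAT read on the opposite strand, and a CArG box can hold it too. A match describes letters in this window and is not a site.

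Because gelsolin and moesin are made by many cells, markers of other cells were read beside them, and their part in these differences was not tested. Medians here and below cover genes measured on both arrays, while summed levels take every probe of the listed genes, whatever its background call. T cell markers had a median difference of 0.84 over 9 measured of 10, with 8 above 0 and Cd4 below, at -0.71. Their summed level relative to the 75th percentile went from 101 with vehicle to 160 with cholic acid. Gzma, at 87500 with vehicle and 97600 with cholic acid, was the brightest of the list and made up most of that sum. B and plasma cell markers had a median of 1.54 over 5 of 7, with summed levels of 3.20 and 4.71. Ms4a1, a defining gene of B cells, passed the background call with cholic acid alone. The myeloid list had a median of 0.34 over 6 of 8, with sums of 7.65 and 7.496, with 5 above 0, from Itgam at -0.11 to the leukocyte antigen Ptprc at 1.30. Adgre1, a macrophage gene, passed the background call with vehicle alone, and Lyz2 with cholic acid alone. The 10 fibroblast and mesothelium markers gave 5 measured, all above 0, at a median of 0.57 and sums of 0.461 and 0.784, and Lum, Pdgfra, Msln, Upk3b and Wt1 failed the background call on both arrays. Smooth muscle markers had a median of 0.69 over 5 of 8, with sums of 0.966 and 1.17, and Myh11 and Des, the defining contractile genes, failed the background call on both arrays.

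The markers of epithelial types gave both directions. Enterocyte markers had a median of -0.49 over 12, with 10 below 0 and summed levels of 1269 and 1306. Apoa4 (-1.79) and Slc2a2 (-1.002) were lower by at least 2-fold. The 2 enterocyte markers above 0 were Fabp2 at 0.61 and Anpep at 0.40, both bright, with vehicle signals of 325000 and 226000. Goblet markers were at a median of 0.07 over 6 of 7, with sums of 431 and 402, and Paneth markers at -0.25 over 4 of 5, with sums of 12.1 and 10.3. Tuft markers had a median of 0.44 over 5 of 9, with sums of 0.364 and 0.477, and enteroendocrine markers a median of 0.56 over 9 of 10, with sums of 40.5 and 53.3. Among endothelial markers 2 of 6 were measured, Pecam1 at -0.25 and Kdr at 0.40. Of the nerve and glial markers 1 of 6 was measured, Elavl4 at 0.71.

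Among markers of position along the gut, Fabp6 and S100g differed by more than any of the 10 genes. Fabp6, the bile acid binding protein of the ileum, gave 47.3 with vehicle and 1320 with cholic acid, a difference of 5.32. Slc10a2, the ileal bile acid transporter, differed by 2.26, and Onecut2, a factor of the upper small intestine, by -2.30. The 7 distal markers had a median of 0.74 with summed levels of 36.1 and 45.0, and the proximal list a median of -0.27 over 7 of 8, with sums of 342 and 243. Of the distal markers 6 lay above 0 and 1 below, Cubn, the ileal receptor, at -0.94. S100g, listed as proximal, went against its list at 2.61. List medians were also set against the median of all genes. Those of the T cell, B and plasma cell, myeloid, fibroblast, smooth muscle, tuft, enteroendocrine and distal lists lay above it in 11 of 11 other processings. Those of the enterocyte, Paneth and proximal lists lay below it in 11 of 11, and that of the goblet list above it in 3 and below it in 8. Of these processings, the percentile over all probes, median centring and the spike-ins shift every gene alike and so repeat the main value by construction. Since each array came from 1 group, the position of the segment, the cell make-up and the treatment cannot be told apart for any gene here, Gsn included.

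**Figure D4:**
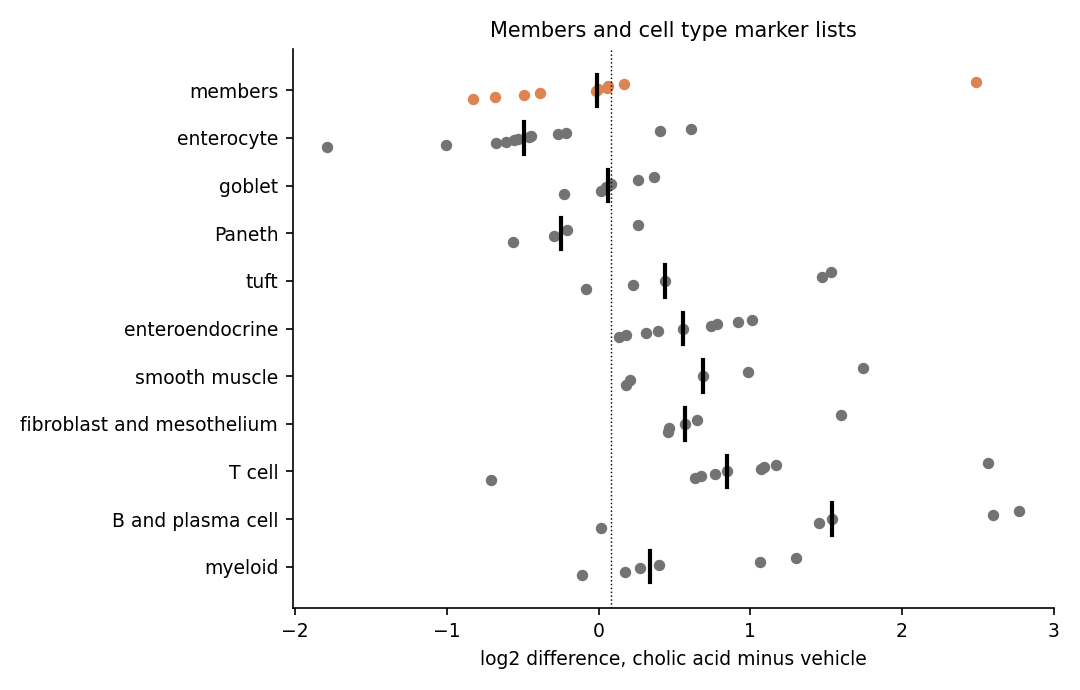
Log2 difference, cholic acid minus vehicle, of the 10 microvillus genes (orange) and of cell type markers (grey), each point 1 gene measured on both arrays; black bars are list medians and the dotted line is the median of all genes, 0.08. The microvillus genes sit at -0.01 and enterocyte markers at -0.49, while T cell markers sit at 0.84 and B and plasma cell markers at 1.54.

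The scaling moved every gene and changed the sign of some. Over 11 alternatives the difference of Gsn ranged from 1.66 to 2.51, and it was above the median of all genes in each. Cdhr5 ranged from -1.66 to -0.83, Eps8 from -1.52 to -0.66, Ezr from -1.32 to -0.49, Cdhr2 from -1.22 to -0.39 and Vil1 from -0.84 to -0.01, and in every one of the 11 each of these 5 lay below the median of all genes. The percentile over all probes, median centring and the spike-ins shift every gene alike. Relative to that median they repeat the main value by construction, so the 11 are not independent checks. The remaining 4 genes changed sign with the scaling. Myo1a was above 0 in 8 of 11, Pls1 in 6 and Ush1c in 3, and Espn was below 0 in 8. The balance of all genes moved as well: 76.0% of the genes beyond 2-fold were higher on the cholic acid array with the main scaling, against 43.9% with the percentile over all probes, 58.1% with median centring, 51.3% with quantile normalization and with the authors' values, 57.0% with loess, 59.7% with a correction for probe GC content and 3.17% with the spike-ins. Taken relative to the median of all genes, Gsn lay at 2.11 to 2.54 above it and Cdhr5 at 0.84 to 1.04 below it.

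**Figure D5:**
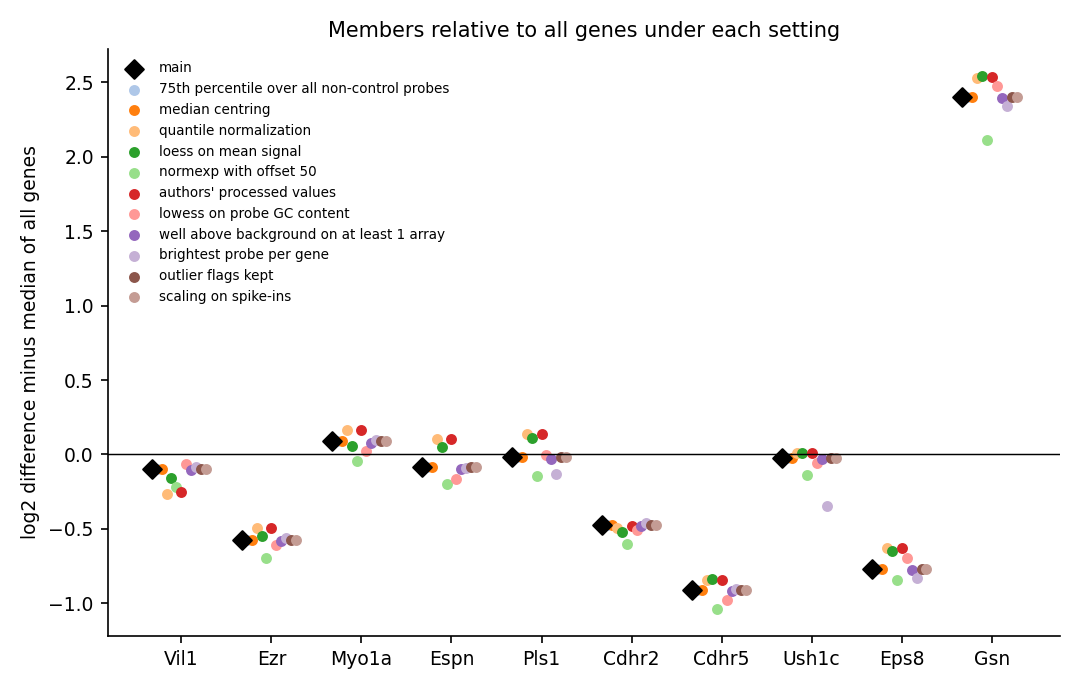
Log2 difference, cholic acid minus vehicle, minus the median of all genes, for each of the 10 genes under the main processing and the 11 alternatives. Gsn stays between 2.11 and 2.54 and Cdhr5 between -1.04 and -0.84, while Myo1a, Espn, Pls1 and Ush1c fall on both sides of the median. The percentile over all probes, median centring and the spike-ins repeat the main value here by construction.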

How the data were processed

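The 2 arrays, 1 per group, are Agilent one-colour arrays of design 028005. Per the file headers, the deposited scanner files hold processed signal intensity per spot (background-subtracted by the software, linear scale) and flags for well above background, saturation and outliers, made with Feature Extraction 10.7.1.1; the submitters' processing notes name 9.5.1.1. The authors' own processed intensity values were used as an alternative: both columns had a median of 10.09, their sorted values matched within 0.0243%, and their log2 values correlated with the scanner's at r = 0.9999 and 0.9998 across probes, as a linear, quantile-normalized scale gives. From 55681 probes outside 3671 control spots per array, spots with outlier flags (124 and 119) were dropped, log2 signals were scaled on the 75th percentile of the 22613 probes that passed the background call on both arrays, and a gene's probes were averaged. Probes took names by RefSeq accession (27235), symbol (3581) or synonym (560), 1370 kept the file's name and 22935 stayed unnamed. Fold limits were 2 and 1.5. Named genes were all members, 6 partners and kinases (Myo7b, Anks4b, Calml4, Slc9a3r1, Slk, Stk10), every relative in the gelsolin, plastin, ERM and Eps8 families, and every other listed microvillus gene beyond 2-fold; others are said to be added where they stand. The members and lists were chosen with earlier results of these data known. No test was made, since the number of arrays limits the precision. Alternatives were the percentile over all probes, median centring, quantile, loess, normexp (offset 50), the authors' values, lowess on GC content, probes above background on at least 1 array, the brightest probe, flags kept and, chosen after seeing the data, 8 spike-in probes. Python 3.11.15, R 4.3.3 and limma 3.58.1 were used, tested on simulated data. Some genes and sequences are not reported here.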

Additional observations from a re-analysis of the deposited data

How the results depend on the processing

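Gsn was at least 2-fold higher under all 11 alternatives. The count of members at least 2-fold lower, 0 in the report, became 1 with the percentile over all probes and with the correction for GC content, 4 with the spike-ins, and 2 at the 1.5-fold limit. The members' median relative to all genes, -0.09, was -0.21 with normexp and -0.24 with the brightest probe. Of the other microvillus genes, 4 were higher and 1 lower. With the percentile over all probes 1 was higher and 3 lower, with the spike-ins 0 and 27, and with median centring 3 and 1. The lower count was 2 with quantile normalization and with the authors' values, and 0 with loess and with normexp. The percentile, median centring and spike-in values differ by construction, since those scalings move every gene by one amount (-0.23, -0.13 and -0.83). For the changes under the other processings the cause was not tested. Over all genes, 833 higher and 263 lower became 421 and 538, 543 and 392 (median centring), 443 and 420 (quantile), 497 and 375 (loess), 268 and 104 (normexp), 446 and 423 (authors' values), 561 and 378 (GC), 1486 and 525 (above background on at least 1 array), and 120 and 3670 (spike-ins). No replicate could be left out. No paired analysis was possible because each group has 1 array. Dim probes, such as those of Rdx and the inner one of Ush1c, limit what small differences can show.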
